A study of Mus musculus with 8 samples.

Results

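The chemokine and chemokine receptor genes of the mouse ovary were followed in pioglitazone-treated and vehicle-treated Lethal Yellow (LY) mice. They were chosen by name, as every gene whose symbol on the array is Ccl, Cxcl, Ccr, Cxcr or Xcr with a number, or is Cx3cl1, Cx3cr1, Xcl1, Pf4 or Ppbp, and 55 of 18069 named genes met the rule. Of these, 37 encode ligands and 18 encode receptors. Each gene was read from the probe with the highest mean over the 8 arrays, which decided between probes for 4 genes only. Female LY mice (C57BL/6J Ay/a) aged 120 days were given vehicle (DMSO, n = 4) or pioglitazone in DMSO (n = 4) by daily gavage, and ovaries were taken after 60 days, at an age of 180 days. The series text gives 0.1 mg of pioglitazone per mouse and day, whereas the methods give 0.01 mg. Both groups carry the same agouti allele, Ay, which is active in most tissues and not in the ovary alone, and which leads to obesity and insulin resistance with age. RNA of each mouse went onto its own array, no samples were pooled, and the stage of the estrous cycle was not given in the sources used here.

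Chemokines are small secreted or membrane-bound proteins that direct the migration of leukocytes through G protein-coupled receptors, and they are grouped as CC, CXC, XC and CX3C by the spacing of their first cysteines. In the ovary, leukocytes enter the follicle wall around ovulation, and macrophages and other immune cells gather in the regressing corpus luteum. Pioglitazone is a thiazolidinedione, a ligand of the nuclear receptor PPARγ, and PPARγ ligands are known for lowering inflammatory gene expression in macrophages. Many inflammatory chemokine genes are induced through NF-kappaB, and Cxcl9, Cxcl10 and Cxcl11 through interferon.

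Values are linear intensities relative to the median of each array (relative intensity units), and 0.2 is the limit of sensitivity named in the methods. The 45 genes at or above 0.2 in all 8 ovaries included ligands and receptors of all 4 subfamilies. A further 9 genes, Cxcr1, Ccr7, Cxcl2, Cxcl11, Ccl20, Cxcl3, Ccr10, Ccr6 and Ccl11, were under 0.2 in some ovaries, and Ccr1l1 was under 0.2 in every one. A gene was tested where the mean of at least 1 group reached 0.2, which held for 35 ligands and 15 receptors and left out Cxcl3, Ccl11, Ccr6, Ccr10 and Ccr1l1. Each array held 36227 probes, of which 82.5% to 83.9% were at or above 0.2, and 47 to 211 spots per array were missing. The ovary label was checked against marker genes, and 9 of 10 named granulosa markers, all 8 luteal markers and 8 of 9 oocyte markers passed the same filter, while the granulosa marker Inhbb was under 0.2 in all 8 arrays. In bulk ovarian RNA, fewer cells of a type and less RNA per cell cannot be told apart.

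**Figure D1:**
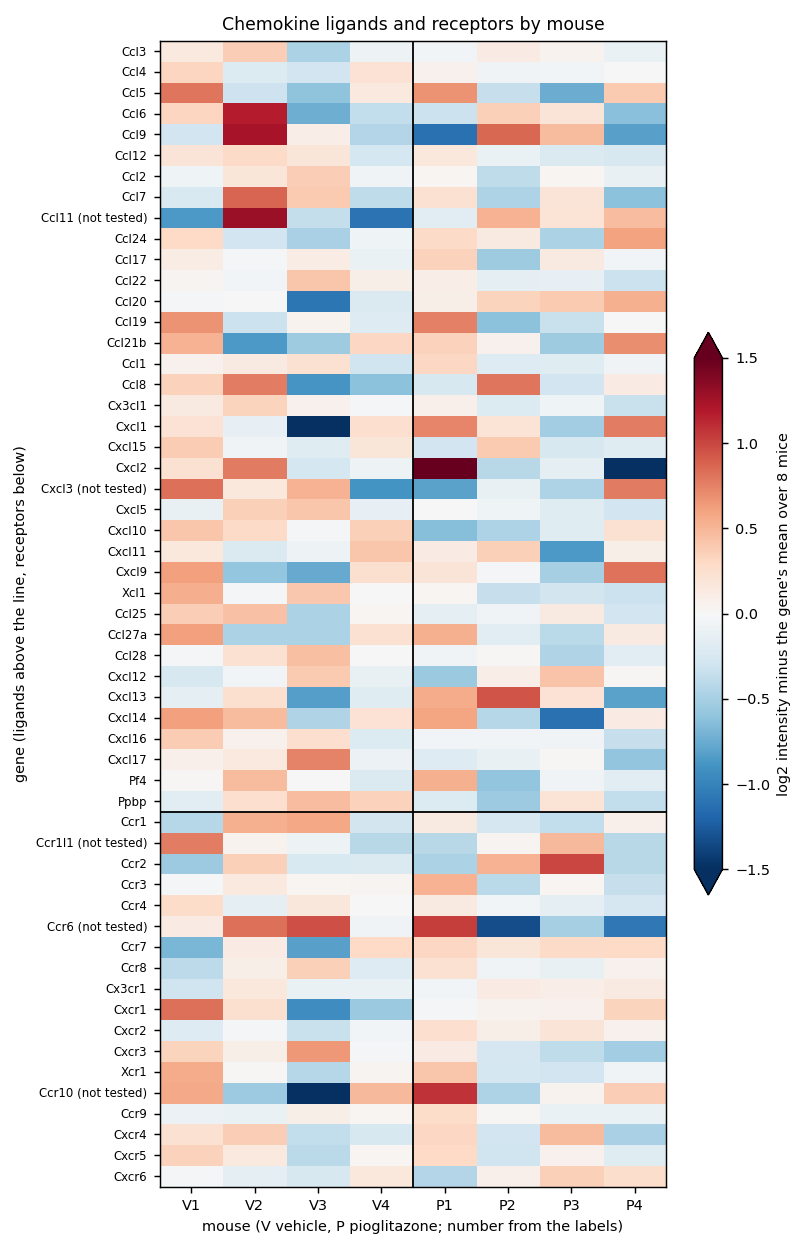
Heat map of the 55 genes (rows, ligands above the line and receptors below) in the 8 mice (columns, V vehicle and P pioglitazone, with the mouse number). Colour gives the log2 intensity minus the mean of the gene over the 8 mice, with colours at their limit beyond 1.5 and values under 0.05 raised to 0.05, and the genes with the widest range of colour include those under 0.2 in some ovaries, such as Cxcl2 and Ccr6.

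The comparison of pioglitazone with vehicle asked whether ovarian chemokine expression differed after treatment. At an unadjusted p under 0.05 in limma, 4 of the 50 tested genes (8%) differed, against 5.50% of all 30634 probes tested (1.97% higher and 3.53% lower). Cxcr3, the receptor for the interferon-induced chemokines, its ligand Cxcl10, and Xcl1, the lymphotactin made by activated T and NK cells, were lower in pioglitazone-treated mice. Ccl20, the ligand of Ccr6, was higher, but it entered the test only because its mean with pioglitazone reached 0.2, so its count is no support for a difference. No gene passed after Benjamini-Hochberg adjustment over all probes (0.00% of all probes passed), and the lowest adjusted p among the 50 genes was 0.837. The differences were small throughout, and group means of all 50 genes lay within 2-fold of each other, with log2 fold changes from -0.53 to 0.67 and a median standard error of 0.21. The median log2 fold change was -0.10 over the 50 genes, -0.16 over the 35 ligands and 0.04 over the 15 receptors, beside -0.03 over all probes tested. Values were lower with pioglitazone for 26 of 35 ligands and for 6 of 15 receptors, and this difference between ligands and receptors was not tested. Over the 50 genes 64.0% were lower, against 55.7% of all probes.

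The labels number the mice of each group from 1 to 4 and do not say that the numbers pair them. Same-numbered mice deviated together from their group means across probes (correlations of 0.181 to 0.515). Vehicle mouse 2 was nearer to pioglitazone mouse 3 (0.369). The use of the number as a block thus rests on these same data. With the mouse number as a block, 7 of the 50 genes had an unadjusted p under 0.05, against 8.60% of all probes (3.40% higher and 5.20% lower), and the lowest adjusted p was 0.575. The blocked fit called the 4 genes above and added Cxcl1, higher with pioglitazone, and Cxcl17 and Ppbp, lower with pioglitazone. Exact permutation tests over the 70 assignments of mice to groups were run on all 55 genes. Their smallest possible p is 0.0286, and no p adjusted over the 55 tests was below 0.524. From that smallest p, a few separated genes could not have passed this adjustment, so its outcome decides nothing.

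**Figure D2:**
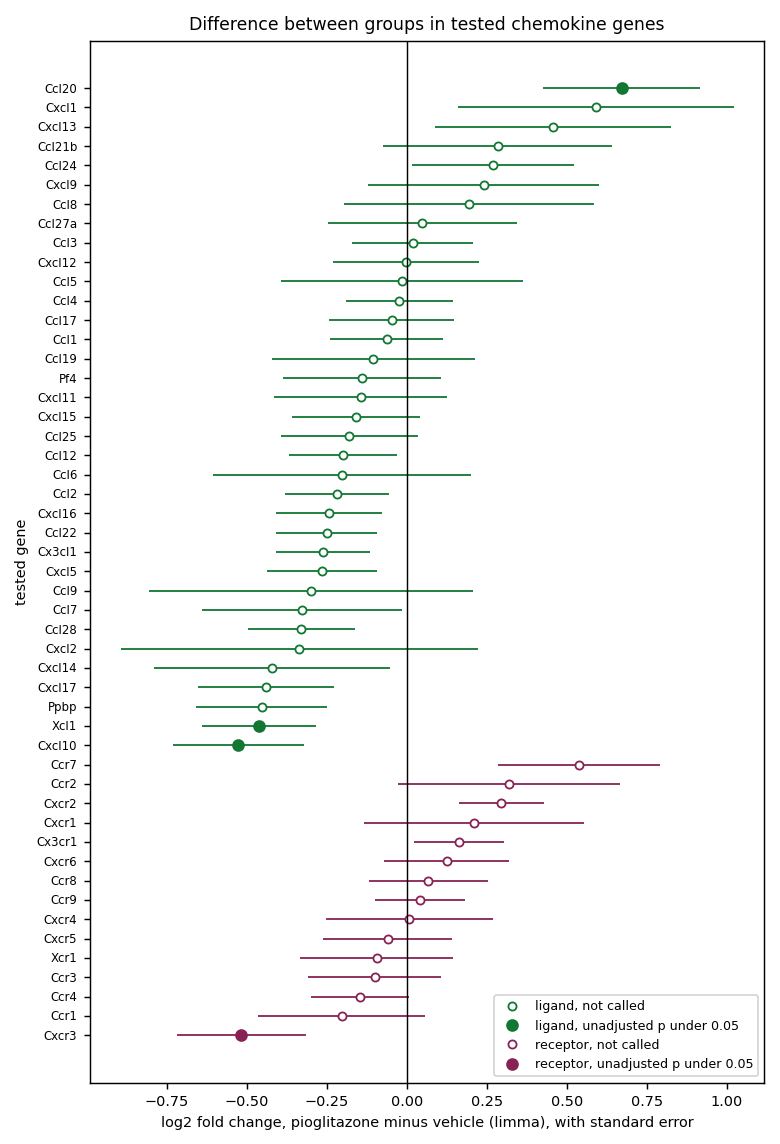
Log2 fold change of pioglitazone over vehicle from limma (horizontal axis) for the 50 tested genes, with the standard error as a bar, ligands and receptors in separate colours and filled points for an unadjusted p under 0.05. The 4 filled points are Cxcr3, Cxcl10 and Xcl1, between -0.53 and -0.46, and Ccl20 at 0.67.

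The 250 bases before the transcript start of the 4 genes that differed, and of Cxcl1, the neutrophil attractant added by the blocked fit, are shown from RefSeq (GRCm38.p6), since NF-kappaB, interferon and PPARγ act through such stretches. All 55 genes were found in the RefSeq gene table, and 42 of them had at least 1 promoter in the sequence table. They lie at chrX:101734148-101734397 (minus strand) for Cxcr3, chr5:92348890-92349139 (minus strand) for Cxcl10, chr1:164935523-164935772 (minus strand) for Xcl1, chr1:83116516-83116765 (plus strand) for Ccl20 and chr5:90890995-90891244 (plus strand) for Cxcl1. Each is written 5′ to 3′ on the strand of its gene, and capitals mark matches on either strand to a kappaB motif (GGGA and TTCC with any 2 bases between them) or an interferon-stimulated response element, ISRE (GAAA and GAAA with any 2 bases between them).
Cxcr3: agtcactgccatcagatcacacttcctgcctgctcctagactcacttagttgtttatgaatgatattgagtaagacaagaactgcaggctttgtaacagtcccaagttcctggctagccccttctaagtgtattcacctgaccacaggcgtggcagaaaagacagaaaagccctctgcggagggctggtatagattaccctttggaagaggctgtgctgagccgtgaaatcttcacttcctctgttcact
Cxcl10: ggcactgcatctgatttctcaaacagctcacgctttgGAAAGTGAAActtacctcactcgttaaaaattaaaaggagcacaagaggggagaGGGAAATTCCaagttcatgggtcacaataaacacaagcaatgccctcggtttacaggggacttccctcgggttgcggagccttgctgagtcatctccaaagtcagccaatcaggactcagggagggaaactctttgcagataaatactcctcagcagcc
Xcl1: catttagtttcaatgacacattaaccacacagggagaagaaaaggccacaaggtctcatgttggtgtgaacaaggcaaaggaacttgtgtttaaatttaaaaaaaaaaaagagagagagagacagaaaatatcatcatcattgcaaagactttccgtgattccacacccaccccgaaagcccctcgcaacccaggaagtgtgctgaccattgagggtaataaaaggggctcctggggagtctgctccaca
Ccl20: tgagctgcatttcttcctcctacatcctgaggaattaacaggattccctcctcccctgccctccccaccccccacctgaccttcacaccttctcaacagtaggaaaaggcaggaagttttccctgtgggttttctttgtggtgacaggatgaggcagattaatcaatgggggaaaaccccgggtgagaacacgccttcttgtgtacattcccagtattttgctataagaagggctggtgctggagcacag
Cxcl1: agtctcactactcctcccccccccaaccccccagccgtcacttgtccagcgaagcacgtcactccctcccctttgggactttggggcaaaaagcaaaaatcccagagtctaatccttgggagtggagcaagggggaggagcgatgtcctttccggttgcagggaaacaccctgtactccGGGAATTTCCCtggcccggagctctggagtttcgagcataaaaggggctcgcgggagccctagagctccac
The Cxcl10 stretch holds an ISRE match that begins 213 bases before the start and a kappaB match that begins 159 bases before it. The Cxcl1 stretch holds overlapping kappaB matches on opposite strands, which begin 71 and 70 bases before the start. The letters of neither motif, nor of a PPAR element (DR1, the half-site AGGTCA repeated after any 1 base), were found in the other 3 stretches. Over the 46 promoters of chemokine genes in the table, the kappaB motif was in 6 (Ccl1, Ccr3, Cxcl1, Cxcl10, Cxcl2 and Cxcl3), against 1.21% of all 32851 promoters of the same length. The ISRE motif was in 3 (Ccl19, Cxcl10 and Cxcl14), against 2.98% of all, and the DR1 motif in 0, against 0.0335% of all.

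Cxcr3 is carried by activated T cells and NK cells. Its level was 17.8, 15.0, 22.1 and 13.8 relative intensity units in vehicle mice 1 to 4, and 15.4, 11.8, 10.9 and 9.82 in pioglitazone mice 1 to 4. The groups overlapped through pioglitazone mouse 1, while at each of the 4 mouse numbers the pioglitazone-treated mouse was lower. The mean was 17.2 ± 3.67 (SD, n = 4) with vehicle and 12.0 ± 2.44 (SD, n = 4) with pioglitazone, a ratio of 0.698. The log2 fold change was -0.52 (SE 0.20), with an unadjusted limma p of 0.0291 and an exact permutation p of 0.0857. Cxcl10, made by interferon-stimulated cells, was at 2.03, 1.86, 1.51 and 1.96 in the vehicle group and at 0.979, 1.11, 1.34 and 1.79 in the pioglitazone group. Pioglitazone mouse 4 lay within the vehicle range and the other three pioglitazone-treated mice lay below it. Its log2 fold change was -0.53 (SE 0.21), with an unadjusted limma p of 0.0302 and an exact permutation p of 0.0571.

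The other two Cxcr3 ligands did not pass the unadjusted threshold. Cxcl9 was at 1.49, 0.655, 0.580 and 1.15 with vehicle and at 1.12, 0.955, 0.691 and 1.73 with pioglitazone, with overlapping groups and a log2 fold change of 0.24 (SE 0.36). Cxcl11 was close to the limit, at 0.231, 0.177, 0.196 and 0.274 with vehicle and at 0.225, 0.265, 0.113 and 0.219 with pioglitazone, with a log2 fold change of -0.14 (SE 0.27). Both Cxcl9 and Cxcl11 are interferon-induced like Cxcl10, and whether they differed from Cxcl10 in their response was not tested. The call of Cxcr3 was lost with quantile normalization (log2 fold change -0.44) and cyclic loess (-0.42), and without vehicle mouse 1 (-0.49) or 3 (-0.39) or pioglitazone mouse 2 (-0.52), 3 (-0.48) or 4 (-0.43). That of Cxcl10 was lost without vehicle mouse 1 (-0.48), 2 (-0.52) or 4 (-0.49) or pioglitazone mouse 1 (-0.40) or 2 (-0.46).

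The Cxcr3 axis was read beside the marker genes of its cells and of interferon signalling. None of the 14 tested T and NK cell markers had an unadjusted p under 0.05. The summed level of the list was 15.4 to 20.3 with vehicle and 15.0 to 19.0 with pioglitazone. Cd3e, a defining T cell marker, was under 0.2 in all 8 arrays. By contrast, Cd3d (2.61 with vehicle, 2.72 with pioglitazone), Cd3g (1.35 and 1.48) and Cd247 (4.42 and 3.80) were above 0.2 in all 8. Of 16 tested genes of the interferon response 1 was lower at an unadjusted p under 0.05, the antiviral enzyme gene Oas1a (0.225 with vehicle and 0.150 with pioglitazone). Oas1a passed the filter only through the vehicle group and was under 0.2 in 6 of 8 arrays. Its call, with or without the block, is therefore no support for a difference. The median log2 fold change of the 16 was -0.18. Irf7, a transcription factor of the interferon response, had a mean of 13.4 with vehicle and 8.78 with pioglitazone and passed only with the block, which called 3 of the 16 lower (Irf7, Irf9 and Oas1a). Ifng, the gene of interferon gamma, was under 0.2 in all 8 arrays. The part of these genes in the Cxcr3 and Cxcl10 values was not tested.

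Xcl1 is the ligand of Xcr1, a receptor of cross-presenting dendritic cells. Xcl1 was at 6.59, 4.40, 5.93 and 4.52 in vehicle mice and at 4.58, 3.54, 3.72 and 3.59 in pioglitazone-treated mice. Only pioglitazone mouse 1 lay above the lowest vehicle mice, and each pioglitazone-treated mouse was lower than the vehicle mouse of its number. The mean was 5.36 ± 1.08 with vehicle and 3.86 ± 0.487 with pioglitazone, with an unadjusted limma p of 0.0282 (log2 fold change -0.46, SE 0.18) and an exact permutation p of 0.0857. The call was lost without vehicle mouse 1 (-0.35) or 3 (-0.40), or pioglitazone mouse 2 (-0.42), 3 (-0.45) or 4 (-0.43). Its receptor Xcr1 was at 18.0, 12.4, 9.09 and 12.6 with vehicle and at 16.3, 10.2, 10.0 and 11.8 with pioglitazone. The Xcr1 groups overlapped almost fully, with a log2 fold change of -0.09 (SE 0.24). Among 7 tested dendritic cell markers 1 had an unadjusted p under 0.05, Itgax (2.97 with vehicle, 2.19 with pioglitazone), while 4 of the 7 had positive values and the median log2 fold change was 0.07. The summed level of the list was 13.3 to 16.2 with vehicle and 12.7 to 14.8 with pioglitazone. The part of these cells in the Xcl1 values was not tested.

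Ccl20 attracts Ccr6-bearing lymphocytes and immature dendritic cells. It was at 0.193, 0.196, 0.0932 and 0.169 with vehicle, all under 0.2, and at 0.209, 0.249, 0.259 and 0.286 with pioglitazone, all above 0.2. The groups did not overlap, which held for 2 of the 50 tested genes, both higher with pioglitazone, against 1.46% of all probes in that direction, and 0 genes were lower without overlap, against 3.13%. That split depended on the scaling, with 1 higher and 1 lower after quantile normalization and 0 higher and 2 lower after cyclic loess. The share of all probes without overlap was not counted after those normalizations. Ccl20 passed the filter on low values only through the group in which it was higher (means of 0.163 and 0.251), and it was not tested where 0.2 was required in every array. Its place among the 2 genes without overlap is therefore no support for a difference. Because every vehicle value was under the limit, the level with pioglitazone was given as at least 1.25-fold higher (mean of the log2 values against the log2 of 0.2). The fitted log2 fold change was 0.67 (SE 0.25), or 0.32 with values under 0.2 raised to 0.2, with an unadjusted limma p of 0.0224 and an exact permutation p of 0.0286, the smallest the design allows. The call was lost with quantile normalization (0.66) and without pioglitazone mouse 4 (0.61). Ccr6 was under 0.2 in 5 of 8 ovaries, with 0.121 to 0.244 with vehicle and 0.0492 to 0.257 with pioglitazone, and was not tested.

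**Figure D3:**
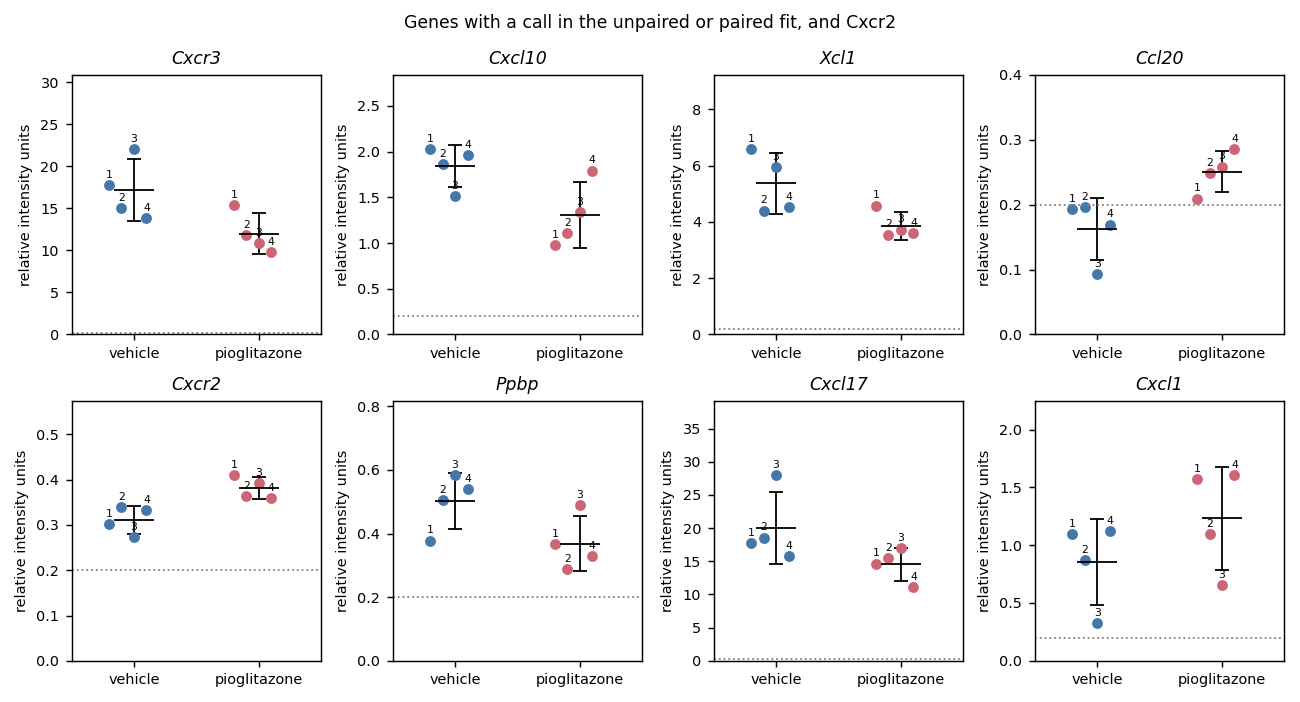
Level in relative intensity units (vertical axis from 0) of the 7 genes with an unadjusted p under 0.05 with or without mouse number as a block, and of Cxcr2, in vehicle and pioglitazone-treated mice; points are mice with their number, bars the mean and SD, and the dotted line the limit of 0.2. The Ccl20 and Cxcr2 points of the groups do not overlap, and those of the other 6 genes do.

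Cxcr2, the neutrophil receptor for the ELR-type CXC chemokines, was the other gene with no overlap. It was at 0.301, 0.340, 0.272 and 0.333 with vehicle and at 0.410, 0.364, 0.392 and 0.360 with pioglitazone. The difference was narrow, with means of 0.312 ± 0.0311 and 0.382 ± 0.0237, a log2 fold change of 0.30 (SE 0.13), an unadjusted limma p of 0.0535 and an exact permutation p of 0.0286. The test named in the methods called it at its unadjusted threshold. Cxcl1, a Cxcr2 ligand that attracts neutrophils, was at 1.10, 0.871, 0.328 and 1.12 with vehicle and at 1.57, 1.09, 0.658 and 1.61 with pioglitazone. The groups overlapped, but each pioglitazone-treated mouse was above the vehicle mouse of the same number. Its log2 fold change of 0.59 (SE 0.43) had an unadjusted limma p of 0.201 without the block and of 0.00763 with it. It was 0.18 without vehicle mouse 3 and 0.09 with array weights.

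The other ligands and the second receptor of this axis did not pass the unadjusted threshold. Cxcl2, another neutrophil attractant, was at 0.159 to 0.327 with vehicle and at 0.0623 to 0.540 with pioglitazone, with a log2 fold change of -0.34 (SE 0.56) whose direction was not stable. It was -0.89 without pioglitazone mouse 1, where it passed the unadjusted threshold, 0.15 without pioglitazone mouse 4 and 0.14 with values under 0.2 raised to 0.2. Cxcl3 was between 0.0802 and 0.264 over all mice and was not tested. Cxcl5, known as LIX in the mouse, had a log2 fold change of -0.27 (SE 0.17), and Cxcl15, known as lungkine, of -0.16 (SE 0.20). Cxcr1, which recognises some of the same ligands, had 0.21 (SE 0.34). Neutrophil markers were read beside them. Of 8 tested, the granule gene Ltf (0.663 and 0.941) and Retnlg (0.456 and 0.758) were higher with pioglitazone at an unadjusted p under 0.05. Csf3r, the receptor of the growth factor G-CSF (1.10 and 0.731), Camp (0.443 and 0.175) and Ngp (1.09 and 1.00) had negative values, and Csf3r and Camp were lower with the block. Camp passed the filter only through the vehicle group and was under 0.2 in 5 of 8 arrays. Its call is therefore no support for a difference. The median log2 fold change of the list was 0.09, and the summed list was 5.06 to 7.42 with vehicle and 5.47 to 7.17 with pioglitazone, with no marker under 0.2 in all arrays. Their part in the Cxcr2 and Cxcl1 values was not tested.

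Ppbp and Pf4 encode the chemokines of platelet granules. Ppbp was at 0.378, 0.505, 0.584 and 0.539 with vehicle and at 0.368, 0.289, 0.489 and 0.328 with pioglitazone. It was lower with pioglitazone at each mouse number, while the groups overlapped through vehicle mouse 1 and pioglitazone mouse 3. The log2 fold change of -0.45 (SE 0.21) had an unadjusted limma p of 0.0537, an exact permutation p of 0.0571 and an unadjusted p of 0.0367 with the block. Without vehicle mouse 1 or pioglitazone mouse 3 it was -0.58 or -0.60 and passed the unadjusted threshold. Pf4 (platelet factor 4) was at 2.84 to 4.57 with vehicle and at 2.19 to 4.78 with pioglitazone, with a log2 fold change of -0.14 (SE 0.25). Of 7 tested platelet markers 1 had an unadjusted p under 0.05, the collagen receptor gene Gp6 (0.274 and 0.194). Gp6 passed the filter only through the vehicle group, so its call is no support for a difference. The summed list was 17.4 to 23.9 with vehicle and 14.7 to 20.4 with pioglitazone, and no marker was under 0.2 in all arrays. Most of the sum came from Itgb3 alone (means of 16.9 with vehicle and 13.9 with pioglitazone). The platelet integrin gene Itga2b reached 0.2 in vehicle mouse 3 only (0.206) and was not tested. Their part in the Ppbp values was not tested.

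Cxcl17, a chemokine of mucosal surfaces, was at 17.7, 18.6, 28.0 and 15.8 with vehicle and at 14.6, 15.5, 17.0 and 11.1 with pioglitazone. Vehicle mouse 3 was the highest of its group and pioglitazone mouse 3 of the other, and each pioglitazone-treated mouse was below the vehicle mouse of its number. The log2 fold change was -0.44 (SE 0.21), with an unadjusted limma p of 0.0679, of 0.0196 with the block, and an exact permutation p of 0.0571. It passed the unadjusted threshold without vehicle mouse 4 (-0.54) and was -0.27 without vehicle mouse 3 and -0.23 with array weights. Of 8 tested oviduct and surface epithelium markers 1 was lower, Upk3b (0.345 with vehicle and 0.219 with pioglitazone), and the list summed to 71.3 to 114 with vehicle and 79.1 to 103 with pioglitazone, with no marker under 0.2 in all arrays. Its part in the Cxcl17 values was not tested.

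The pair Cxcl12 and Cxcr4 retains progenitors and lymphocytes in tissues and is also used by ovarian germ cells. Cxcl12 was at 0.423, 0.486, 0.653 and 0.461 with vehicle and at 0.340, 0.535, 0.672 and 0.505 with pioglitazone. Cxcr4 was at 2.75, 3.01, 1.81 and 1.98 with vehicle and at 2.91, 1.92, 3.24 and 1.67 with pioglitazone. Neither passed the test, with log2 fold changes of -0.00 (SE 0.23) for Cxcl12 and 0.01 (SE 0.26) for Cxcr4. Cxcl13, which draws B cells to follicles, was at 0.334, 0.433, 0.207 and 0.323 with vehicle and at 0.542, 0.704, 0.428 and 0.210 with pioglitazone. Its groups overlapped, with a log2 fold change of 0.46 (SE 0.37), and it was 0.80 without pioglitazone mouse 4, where it passed the unadjusted threshold, 0.26 without vehicle mouse 3 and 0.22 without pioglitazone mouse 2. Its receptor Cxcr5 was at 0.599, 0.524, 0.358 and 0.484 with vehicle and at 0.583, 0.384, 0.496 and 0.416 with pioglitazone, with a log2 fold change of -0.06 (SE 0.20). Among 8 tested B cell markers, Cd79b and Ms4a1 were higher and Cd79a was lower at an unadjusted p under 0.05, and Ms4a1 was not called with the block.

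Cxcl16, a membrane-bound chemokine that also serves as a scavenger receptor, was at 5.37, 4.31, 4.91 and 3.57 with vehicle and at 4.01, 4.01, 3.98 and 3.24 with pioglitazone. Its log2 fold change was -0.24 (SE 0.17), within the overlap of the groups. Cxcr6, its receptor on T and NKT cells, was at 0.353, 0.324, 0.302 and 0.398 with vehicle and at 0.263, 0.377, 0.458 and 0.428 with pioglitazone, with a log2 fold change of 0.12 (SE 0.20). Cxcl14, a chemokine of epithelia and stroma, was at 3.70 to 7.76 with vehicle and at 2.34 to 7.63 with pioglitazone, and the mouse with pioglitazone was the lower at each of the 4 numbers. Its log2 fold change was -0.42 (SE 0.37), and it passed the unadjusted threshold only with array weights (-0.77), and it was -0.12 without pioglitazone mouse 3.

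Cx3cl1 (fractalkine) is the membrane-bound ligand that holds Cx3cr1-bearing monocytes and macrophages. It was at 8.99, 10.3, 8.59 and 8.07 with vehicle and at 8.63, 7.09, 7.84 and 6.51 with pioglitazone. Means were 9.0 ± 0.974 and 7.52 ± 0.921, and only pioglitazone mouse 1 lay above the lowest 2 vehicle mice. The log2 fold change was -0.26 (SE 0.15) with an unadjusted limma p of 0.110, and the second probe of the gene gave -0.17 (SE 0.27). Cx3cr1 was at 0.785, 1.08, 0.903 and 0.901 with vehicle and at 0.940, 1.05, 1.03 and 1.06 with pioglitazone, with a log2 fold change of 0.16 (SE 0.14).

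Ccl19 and the Ccl21 chemokines guide Ccr7-bearing dendritic cells and T cells into lymphatic vessels and lymph nodes. Ccl19 was at 10.2, 5.12, 6.65 and 5.57 with vehicle and at 10.8, 4.17, 5.06 and 6.35 with pioglitazone, with a log2 fold change of -0.10 (SE 0.32). Ccl21b was at 3.77, 1.44, 1.81 and 3.24 with vehicle and at 3.32, 2.74, 1.80 and 4.27 with pioglitazone, with a log2 fold change of 0.28 (SE 0.36). The Ccl21 genes are near-identical copies and cross-hybridisation cannot be told apart on the array. A brighter probe annotated to Ccl21a, Ccl21b and Ccl21c together, and so outside the rule, was at 27.0, 11.1, 13.5 and 20.1 with vehicle and at 28.7, 20.3, 17.0 and 33.6 with pioglitazone. It was higher with pioglitazone at every mouse number, with a log2 fold change of 0.51 (SE 0.31) and an unadjusted limma p of 0.141, or 0.0233 with the block. Ccr7 was at 0.140, 0.244, 0.128 and 0.277 with vehicle and at 0.278, 0.254, 0.275 and 0.277 with pioglitazone. Its log2 fold change of 0.54 (SE 0.25) had an unadjusted limma p of 0.0618 and passed that threshold without vehicle mouse 2 (0.67) or 4 (0.73). The value was 0.36 without vehicle mouse 3, 0.26 with array weights and 0.25 with values under 0.2 raised to 0.2, and Ccr7 entered the test only through its mean with pioglitazone (0.197 with vehicle and 0.271 with pioglitazone). None of 6 tested lymphatic endothelial markers had an unadjusted p under 0.05, and their summed level was 41.5 to 62.4 with vehicle and 36.9 to 62.2 with pioglitazone.

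The monocyte attractants Ccl2, Ccl7 and Ccl12 act on Ccr2. Ccl2 was at 2.67, 3.17, 3.60 and 2.69 with vehicle and at 2.85, 2.15, 2.84 and 2.58 with pioglitazone. Ccr2 was at 0.337, 0.631, 0.422 and 0.424 with vehicle and at 0.355, 0.707, 0.988 and 0.371 with pioglitazone. The groups overlapped for both genes, with log2 fold changes of -0.22 (SE 0.16) and 0.32 (SE 0.35). Ccl7 (-0.33, SE 0.31) and Ccl12 (-0.20, SE 0.17) also had negative log2 fold changes that did not pass the threshold. Of 14 tested macrophage and monocyte markers none had an unadjusted p under 0.05 without the block and 2 were lower with it (C1qa and Fcgr1). Of the 14, 12 had a negative log2 fold change with a median of -0.22, and their summed level was 113 to 168 with vehicle and 103 to 140 with pioglitazone. None of them was under 0.2 in all arrays, and their part in the Ccr2 ligands was not tested.

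Ccl3, Ccl4 and Ccl5 are inflammatory CC chemokines of T cells, NK cells and macrophages, and Ccl6 and Ccl9 are rodent chemokines made largely by myeloid cells. Ccl5 was at 5.50, 2.55, 2.08 and 3.51 with vehicle and at 5.04, 2.49, 1.89 and 4.14 with pioglitazone, so that the 2 groups covered the same range (log2 fold change -0.01, SE 0.38). Ccl4 was at 12.5, 8.69, 8.16 and 11.6 with vehicle and at 10.4, 9.63, 9.70 and 9.91 with pioglitazone (-0.02, SE 0.17), and Ccl3 had 0.02 (SE 0.19). Ccl9 and Ccl6, with Cxcl1 and Ccl8, were the 4 genes with the largest spread within groups among those at or above 0.2 in all ovaries. Ccl9 was at 2.03, 5.86, 2.65 and 1.82 with vehicle and at 1.15, 4.51, 3.44 and 1.41 with pioglitazone. Ccl6 was at 14.5, 26.3, 6.97 and 9.0 with vehicle and at 9.23, 14.8, 13.3 and 7.48 with pioglitazone. In both genes mouse 2 was the highest of each group, and the log2 fold changes were -0.30 (SE 0.51) for Ccl9 and -0.20 (SE 0.40) for Ccl6. Ccr1, a receptor for several of these ligands, had -0.20 (SE 0.26), and Ccr1l1, a Ccr1-like gene, stayed between 0.0214 and 0.114.

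The remaining CC axes serve allergic, regulatory and epithelial traffic, and none of their 12 tested genes had an unadjusted p under 0.05. Ccl24, an eosinophil attractant, was 0.350 ± 0.0842 with vehicle and 0.428 ± 0.124 with pioglitazone, the eotaxin Ccl11 was between 0.0561 and 0.296 and was not tested, and their receptor Ccr3 had a log2 fold change of -0.10 (SE 0.21). The Ccr4 ligands Ccl17 (-0.05, SE 0.19) and Ccl22 (-0.25, SE 0.16) and Ccr4 itself (-0.15, SE 0.15), found on Th2 and regulatory T cells, all had negative values. For the Ccr8 axis, Ccl1 had -0.06 (SE 0.18) and Ccr8 had 0.07 (SE 0.19). Ccl8, which acts on Ccr8 in the mouse, was at 3.43, 4.59, 1.46 and 1.75 with vehicle and at 2.28, 4.70, 2.20 and 2.93 with pioglitazone. Mouse 2 was again the highest of each group and mouse 3 the lowest, and the log2 fold change was 0.19 (SE 0.39).

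Ccl25 and Ccr9 direct T cells to the thymus and small intestine. Ccl25 was at 1.90, 2.00, 1.06 and 1.51 with vehicle and at 1.34, 1.42, 1.62 and 1.21 with pioglitazone, and Ccr9 was at 1.20, 1.19, 1.36 and 1.30 with vehicle and at 1.54, 1.29, 1.20 and 1.19 with pioglitazone. Neither difference exceeded its error, with log2 fold changes of -0.18 (SE 0.21) and 0.04 (SE 0.14). Ccl27a and Ccl28 are the ligands of Ccr10 in skin and mucosa. Ccl27a was at 12.7, 5.94, 5.96 and 9.71 with vehicle and at 12.0, 7.31, 6.25 and 9.09 with pioglitazone, a log2 fold change of 0.05 (SE 0.30). Ccl28 was 0.406 ± 0.0653 with vehicle and 0.323 ± 0.0433 with pioglitazone (-0.33, SE 0.17), and it passed the unadjusted threshold with quantile normalization or cyclic loess (-0.36 each). Ccr10 was between 0.0203 and 0.311 and was not tested.

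Variation by mouse number was examined apart from the treatment. In the fit with group and mouse number together, a moderated F test for the number, chosen after seeing the data, gave an unadjusted p under 0.05 for 12 of 50 genes (24.0%), against 16.2% of all probes. No gene passed after adjustment over all probes, nor did any probe. Of the 12, 11 were ligands (31.4% of 35) and 1 was a receptor, Xcr1. What the numbers stand for (cage, day or litter) is not given in the sources used here. The lowest p-values were those of Ccl5 (unadjusted p = 0.000851 in limma) and Cxcl1 (0.000859), followed by Ccl9 (0.00174), Ccl27a (0.00483), Ccl19 (0.00639), Cxcl14 (0.00831), Cxcl9 (0.0127), Ccl21b (0.0173), Xcr1 (0.0196), Ccl8 (0.0234), Cxcl12 (0.0340) and Ccl24 (0.0423).

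In 7 of the 12 genes (Ccl5, Ccl24, Ccl21b, Cxcl1, Cxcl9, Xcr1 and Ccl27a) mice 1 and 4 were both above mice 2 and 3 within each group. This order was also seen in Ccl4, which had an F test p of 0.349 and was the only other such gene among the 50. The 12 genes were chosen by the test for mouse number, which favours an order shared by both groups. The share of all probes with this order was not counted, so it is not a result about the chemokine genes. Ccl9 and Ccl8 were highest in mouse 2 of both groups, and Cxcl12 was highest in mouse 3 of both. Ccl19 and Cxcl14 were highest in mouse 1 of both groups. Summed markers were set beside these orders. The T and NK cell list was at 20.3, 15.4, 15.5 and 16.9 in vehicle mice 1 to 4 and at 19.0, 16.1, 15.0 and 16.3 in pioglitazone mice, again with mice 1 and 4 above mice 2 and 3 in both groups. The macrophage and monocyte list was highest in mouse 2 of both groups (168 and 140), like Ccl9 and Ccl8. The oocyte list was at 101, 76.1, 67.7 and 106 in vehicle mice 1 to 4 and at 122, 87.7, 70.9 and 97.6 in pioglitazone mice, with the same order. The luteal list had the reverse order, at 511, 609, 530 and 437 with vehicle and at 362, 405, 522 and 376 with pioglitazone. The part of these cells in the chemokine values was not tested.

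**Figure D4:**
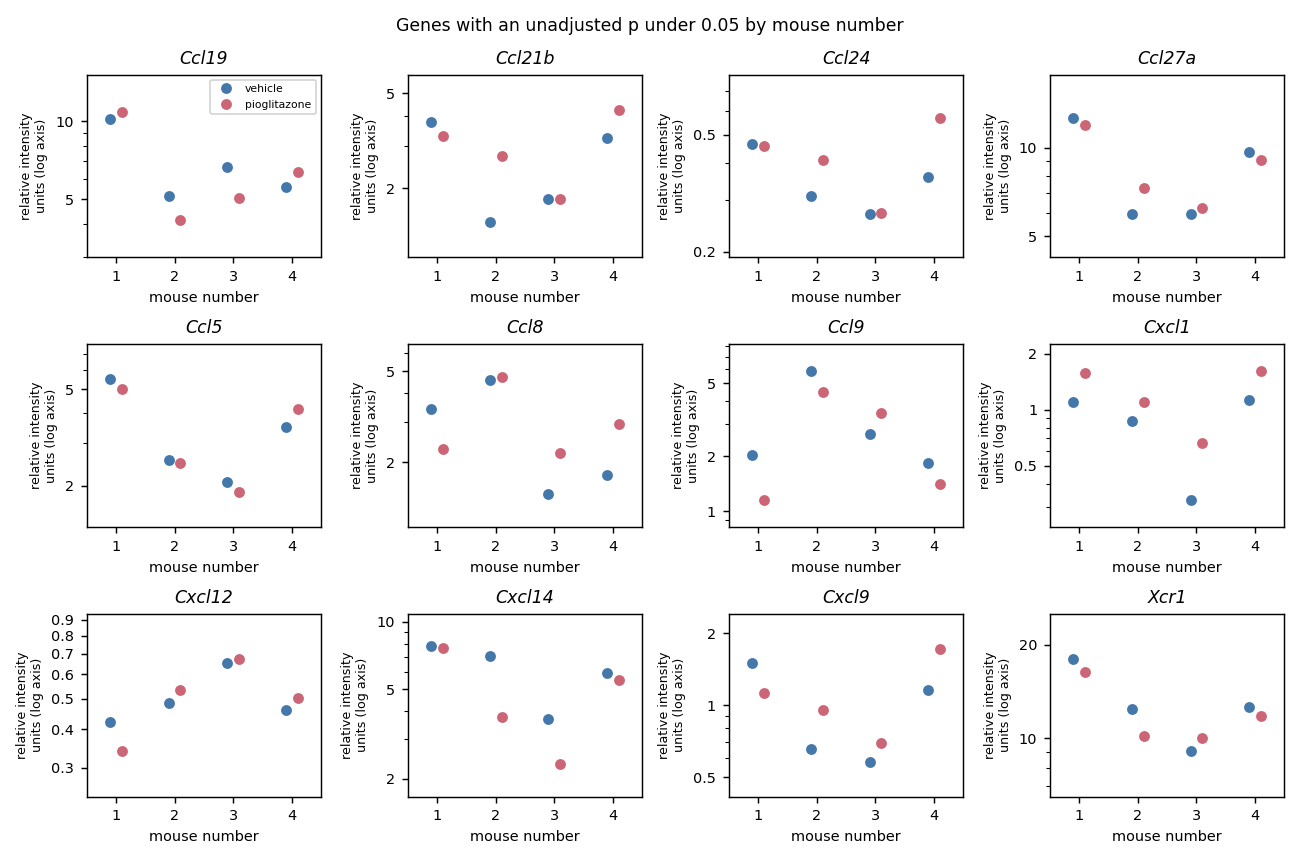
Level in relative intensity units (log axis) of the 12 genes with an unadjusted p under 0.05 for mouse number, by mouse number from 1 to 4, with vehicle and pioglitazone-treated mice as separate points. The genes were chosen by that test, and same-numbered mice lie close in Ccl5 (mouse 3 at 2.08 and 1.89) and farther apart in Cxcl14 (mouse 2 at 7.04 and 3.76) and Ccl21b (mouse 2 at 1.44 and 2.74).

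Many chemokine genes lie side by side in the genome, and the order of genes in RefSeq (GRCm38.p6) was used to set neighbours together. On chromosome 11, the run Ccl2, Ccl7, Ccl11, Ccl12, Ccl8 and Ccl1 had negative log2 fold changes in 4 of 5 tested genes (median -0.20), and the run Ccl5, Ccl9, Ccl6, Ccl3 and Ccl4 in 4 of 5 (median -0.02). On chromosome 5, the run Cxcl5, Ppbp, Pf4, Cxcl3, Cxcl15, Cxcl1 and Cxcl2 had negative values in 5 of 6 tested genes (median -0.21), with Cxcl1 as the exception. Ccl22, Cx3cl1 and Ccl17 on chromosome 8 were negative in 3 of 3 (median -0.25). The receptors Cxcr6, Xcr1, Ccr1, Ccr1l1, Ccr3 and Ccr2 on chromosome 9 were split, with 3 of 5 negative (median -0.09). Beside these, 55.7% of all probes tested had a negative value.

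Genes that act on chemokines or downstream of them were read from fixed lists, and none passed after adjustment. Atypical receptors bind chemokines without G protein signalling, and their list also held other genes (Ccrl2, Cmklr1, Rarres2, Cmtm3 and Cmtm6). Of the 8 tested genes of this mixed list 0 had an unadjusted p under 0.05, and the median log2 fold change was -0.10. They include Ackr1 (0.622 with vehicle, 0.733 with pioglitazone), the Duffy antigen receptor, and Ackr3 (1.47 and 1.75), which scavenges Cxcl12. Of 22 tested receptor signalling genes 0 passed (median -0.08), with Dock2, a leukocyte migration regulator, at 2.51 and 2.07 and Rgs2, an inhibitor of G protein signalling, at 116 and 151. Of 12 tested genes for chemokine cleavage and glycan binding 0 passed (median -0.05), with the heparan sulfate polymerase Ext1 at 23.4 and 30.7. With the block, 1 of the 12 was higher (Ext1) and 2 were lower (Ctsg and Hs6st1). Of 21 tested NF-kappaB and cytokine inducers 0 passed (median -0.11), with the inhibitor Nfkbib at 6.69 and 5.16 and Tnf at 0.280 and 0.219. The inhibitor Nfkbie went the other way, at 0.168 and 0.387 (log2 fold change 1.02), and entered the test only through its mean with pioglitazone. Tnf was lower with the block.

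Markers of the other ovarian cells were measured on the same arrays as the chemokines. All 8 tested luteal markers had a negative log2 fold change (median -0.54) with none at an unadjusted p under 0.05 without the block. With the block, 4 of the 8 were lower (Akr1c18, Cyp11a1, Scarb1 and Star), and none passed after adjustment. Their summed level was 437 to 609 with vehicle and 362 to 522 with pioglitazone. All 9 tested granulosa markers had a positive value (median 0.30), and 1, Fst, had an unadjusted p under 0.05 (2 with the block, Fst and Nr5a2), with sums of 144 to 195 and 165 to 251. The adipocyte list had 0 of 7 at that threshold, with sums of 43.6 to 88.0 with vehicle and 28.8 to 155 with pioglitazone, the highest in pioglitazone mouse 1. That mouse was also the highest pioglitazone-treated mouse for many chemokine genes, among them Ccl2, Ccl22, Ccr4, Cx3cl1, Cxcr3 (15.4) and Xcl1 (4.58). It was the lowest for others, such as Ccl9 (1.15) and Cxcl10 (0.979). Its place is therefore not particular to the genes that differed. The part of these cells in the chemokine values was not tested. A comparison of 3 against 3, without mouse 1 of both groups, was added after seeing the data. In it, 4 of 50 tested chemokine genes had an unadjusted p under 0.05 (Ccl20, Cxcr3, Xcl1 and Ppbp), against 1465 of 30599 probes. Every vehicle value of Ccl20 was under 0.2, so its count is no support for a difference. Cxcl10 had a log2 fold change of -0.35 and no longer passed.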

How the data were processed

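RNA from 8 ovaries was hybridised to CodeLink mouse arrays, 1 per animal, with a single dye. The deposited table gives each probe and mouse a linear intensity. The authors subtracted background with CodeLink software, and GeneSpring 7.0 was then used to scale slides to their medians, so that deposited array medians were 1.007 to 1.014. The methods also name a scaling of genes to their own medians, of which the values show no sign. The code -9999 was taken as a missing spot, and 340 probes had one. BL mice without treatment were not analysed here.

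Here each array was scaled again to a median of 1 and log2 was taken after raising values below 0.05 to 0.05. limma 3.58.1 in R 4.3.3 (lmFit, eBayes) was run on the 30634 probes that had 3 or more values per group and reached a mean of 0.2 in either group, with Benjamini-Hochberg adjustment over those probes. Unadjusted p-values under 0.05 are given as a description. Exact permutation tests (2-sided, 70 assignments) used mean log2 values. The fit was tested on simulated data. Ratios are of arithmetic means. Names came from the platform annotation (21615 probes with 1 gene, 681 with several, 13931 unnamed). After group means were removed, arrays of equal mouse number correlated at 0.515, 0.181, 0.274 and 0.232, so the numbers were taken to pair the mice, on the evidence of the data and not of the labels. For vehicle mouse 2 the best correlation was with pioglitazone mouse 3 (0.369).

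The genes and lists were chosen with earlier results of these data known. Values of every mouse were given for genes with an unadjusted p under 0.05 or without overlap, for both partners of fixed ligand and receptor pairs at or above 0.2 in at least 4 arrays, for the 4 genes of largest spread and the 6 brightest probes, and of each list up to 3 genes of smallest p were to be named. Other named genes were chosen after their values were seen. Lists of eosinophil, mast cell, red blood cell and theca and stroma markers had 0 genes at an unadjusted p under 0.05 (with the block, Epx of eosinophils and Fcer1a of mast cells were higher), and of 8 tested blood endothelial markers 1 was lower (Emcn, and with the block Cldn5 was higher), with Cdh5 under 0.2 in all arrays. Alternatives were a lower and a higher floor (0.01 and 0.2), between-array normalization by quantiles or cyclic loess, values as deposited, 3 other filters, an intensity trend in eBayes, weighting of arrays, the methods' own test, the mean over the probes of a gene, the mouse number as a block, and leaving out each mouse. The number of mice limits the precision, and p-values measure only the spread between these mice.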

Additional observations from a re-analysis of the deposited data

Results flagged for a closer look

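Dixon's test at its usual critical value was applied to each group of each tested gene, 100 groups in all, and marked 3. Chance marks about 1 in 20 groups. Ccr7 was at 0.254 in pioglitazone mouse 2, below the other three at 0.275 to 0.278 (gap over range 0.876). Cxcl15 was at 1.79 in pioglitazone mouse 2, above the other three at 1.12 to 1.20 (0.844). Cxcl16 was at 3.24 in pioglitazone mouse 4, below the other three at 3.98 to 4.01 (0.962).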

How the results depend on the processing

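With the mouse number as a block, 7 chemokine genes (2 higher, 5 lower) and 2635 probes had an unadjusted p under 0.05, against 4 and 1685 without it. The pairing added Cxcl1, Cxcl17 and Ppbp and changed no other call among the chemokine genes. Leaving out 1 mouse in turn gave 1 gene (without pioglitazone mouse 2) to 5 genes (without vehicle mouse 4), 3 to 6 genes without overlap, and 737 (without pioglitazone mouse 4) to 2443 probes (without pioglitazone mouse 1). The 2 genes without overlap were both higher, against 1 higher and 1 lower with quantile normalization and 0 and 2 with cyclic loess. Of these 2, Ccl20 is no support for a difference. Requiring 0.2 in every array left 1 gene without overlap, and leaving out mouse 1 of both groups, chosen after seeing the data, gave 8. Groups of fewer mice separate more easily. The share of all probes without overlap was not counted for these fits, nor with quantile normalization or cyclic loess. The 3 to 6, the 8 and the counts after those normalizations are therefore not a result about the chemokine genes. The split of all probes was 603 higher and 1082 lower, 691 and 799 with quantile normalization, and 723 and 823 with cyclic loess. The median log2 fold change of -0.10 ran from -0.17 to -0.02. Over 22 alternatives and 1094 pairs of a gene and an alternative, 1054 kept their side of the threshold, 20 lost a call, 20 gained one and 0 called genes changed sign, while 24 genes without a call changed sign in 58 pairs. The lowest adjusted p in any was 0.575. The cause of the changes was not tested. Genes near 0.2 are limited by signal over background.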
